A study of Arabidopsis thaliana with 2 samples.

Results

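Cpn60beta2, Cpn60beta3 and Cpn60beta4 encode beta subunits of the chloroplast chaperonin Cpn60 in Arabidopsis thaliana. Each is named alone by 1 probe set in the platform annotation, so the family is covered by 3 of the 16541 probe sets and 3 of the 9063 genes named in this way. They were chosen by their measured intensities and mutant against wild-type differences on these arrays, so every level and difference given for them is a description. Rosette leaves of the Columbia strain were profiled on 2 Affymetrix arrays, 1 of wild-type plants and 1 of the KO-HsfA1d/A1e mutant, a double knockout of the heat shock factor genes HsfA1d and HsfA1e. Both groups grew on MS medium under growth light of 100 µE m-2 s-1, in days of 16 h at 25°C and nights of 8 h at 22°C. As seedlings of 2 weeks, both were moved to a high light of 400 µE m-2 s-1 at 25°C for 30 min and were then harvested. The labels call each array biological replicate 1 and do not say which insertion lines were used or whether plants were pooled. Unstressed plants are not analysed here, and the response to light itself is therefore not measured.

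Chaperonins are barrel-shaped complexes that enclose a newly made or unfolded protein and let it fold in isolation. The chloroplast complex is built of alpha and beta Cpn60 subunits stacked in rings and closed by lids of Cpn10 and Cpn20, and its best known client is the large subunit of Rubisco, the enzyme that fixes carbon dioxide. In Arabidopsis, Cpn60beta2 is one of the general beta subunits and overlaps in function with Cpn60beta1, for example in plastid division, whereas Cpn60beta4 is a specialised subunit needed to fold NdhH, a part of the chloroplast NADH dehydrogenase-like (NDH) complex. Heat shock factors of class A1 are transcription factors that switch on genes of chaperones under stress.

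Cpn60beta2 had an intensity of 8537 on the wild-type array against 2812 on the mutant array, so the mutant value was the lower by 3.04-fold, or 67.1%. On the scale of log2(intensity + 16), mutant minus wild type, the difference was -1.60. Cpn60beta3 had 582.2 on the wild-type array against 447.8 on the mutant array, 23.1% lower and a log2 difference of -0.37. Cpn60beta4 had 631.8 against 525.6, 16.8% lower and a log2 difference of -0.26. All 3 subunits thus had their lower value in the mutant, but only Cpn60beta2 was past 2-fold, the size used here to count differences. With 1 array per genotype there is no SD, no standard error and no test of any of these differences.

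**Figure D1:**
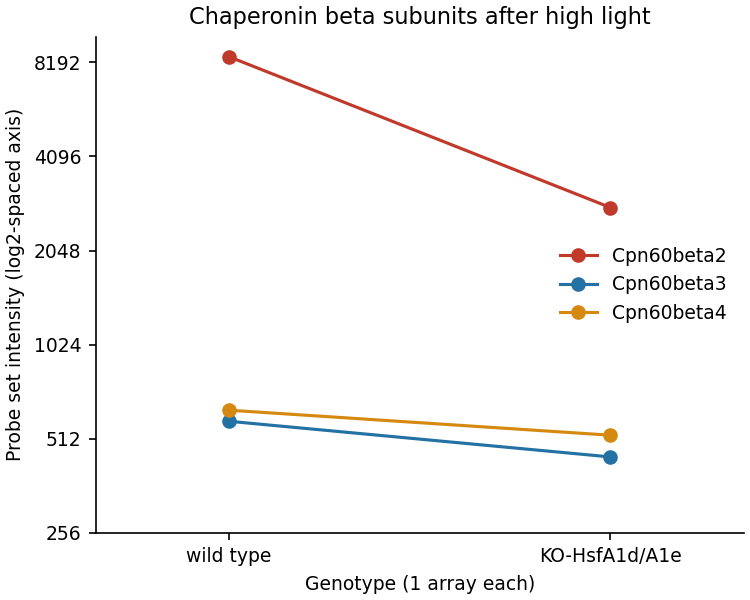
Probe set intensity (log2-spaced vertical axis) of each beta subunit on the wild-type array and the KO-HsfA1d/A1e array, 1 point per array and no error bars because there is 1 array per genotype. Cpn60beta2 goes from 8537 to 2812, while Cpn60beta3 and Cpn60beta4 run nearly parallel between 447.8 and 631.8.

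The deposited values carry no detection calls, so their place among the deposited probe sets gives the only sign of how far they lie above the dimmest signals. On the wild-type array, 98.4% of the 16541 deposited probe sets were dimmer than that of Cpn60beta2, and on the mutant array 92.7% were. Even its lower mutant value therefore lay among the brighter probe sets. The place of Cpn60beta3 was 66.0% for the wild type and 58.7% for the mutant, and that of Cpn60beta4 was 67.8% and 63.0%. All 3 members passed the expression filter. It retained 8271 probe sets with a mean log2 value no lower than the median over all probe sets, equal to an intensity of 332.0. The lower 5% of the deposited values of each array ended at 31.7 and 31.9, far under every value of the family.

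A value at least 2-fold lower in the mutant was seen in 114 of these 8271 probe sets, a background of 1.38%, and in 1 of the 3 members, Cpn60beta2. A value at least 2-fold higher was seen in 10, or 0.121%, and in none of the 3 members. The rule that chose the family used this same contrast, so nothing is read from its count. The median difference over the same probe sets was 0.03. A difference as low as that of Cpn60beta2 or lower was found in 49 of them, itself included, which is 0.592%. Of the 53 singly named probe sets past the filter and at least 2-fold lower, it stood 19th from the lowest. The other members lay in the shoulder of the distribution. A difference at or under that of Cpn60beta3 was found in 622 probe sets, or 7.52%, and one at or under that of Cpn60beta4 in 1059, or 12.8%. A lower value of any size in the mutant was common, at 43.7% of the probe sets past the filter, so the shared sign of the 3 members carries little weight by itself. The central 95% of all differences past the filter ran from -0.68 to 0.52, with Cpn60beta2 outside and both other subunits inside. This range is a spread over probe sets and no range of error. It is no test of the subunits, which were chosen by their differences.

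**Figure D2:**
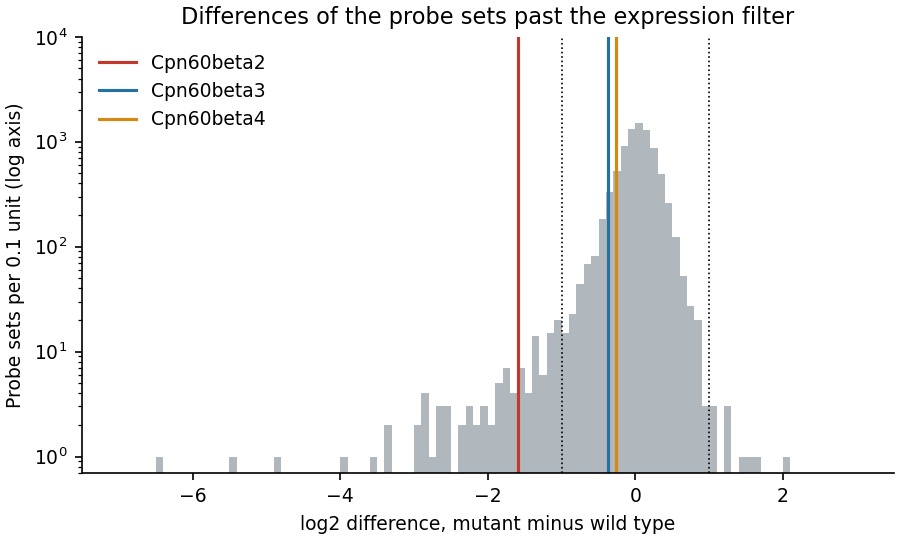
Number of probe sets (log axis, bins of 0.1) by log2 difference, mutant minus wild type, for the 8271 probe sets past the expression filter, with coloured lines at the 3 beta subunits and dotted lines at 2-fold. Cpn60beta2, at -1.60, lies in the sparse lower tail, and Cpn60beta3 (-0.37) and Cpn60beta4 (-0.26) lie on the lower flank of the main peak.

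The balance between subunits was followed as the ratio of their intensities within each array. Probes differ in how strongly they respond to their transcript, so such a ratio is no ratio of transcript numbers, and only its change between the arrays can be read. Any background signal or signal from a relative does not cancel in that change, and neither was tested. The ratio of Cpn60beta2 to Cpn60beta3 was 14.7 for the wild type and 6.28 for the mutant, a 2.33-fold drop. The ratio of Cpn60beta2 to Cpn60beta4 went from 13.5 to 5.35, a 2.53-fold drop. On the log2 scale with the added 16, these ratios changed by -1.23 and -1.34. By contrast, the ratio of Cpn60beta3 to Cpn60beta4 went from 0.922 to 0.852, a log2 change of -0.11. On these arrays Cpn60beta2 was lower in the mutant relative to both relatives, by more than 2-fold in each case. The relatives moved nearly alike. These ratio changes restate the differences by which the members were chosen, so nothing further is read from them.

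**Figure D3:**
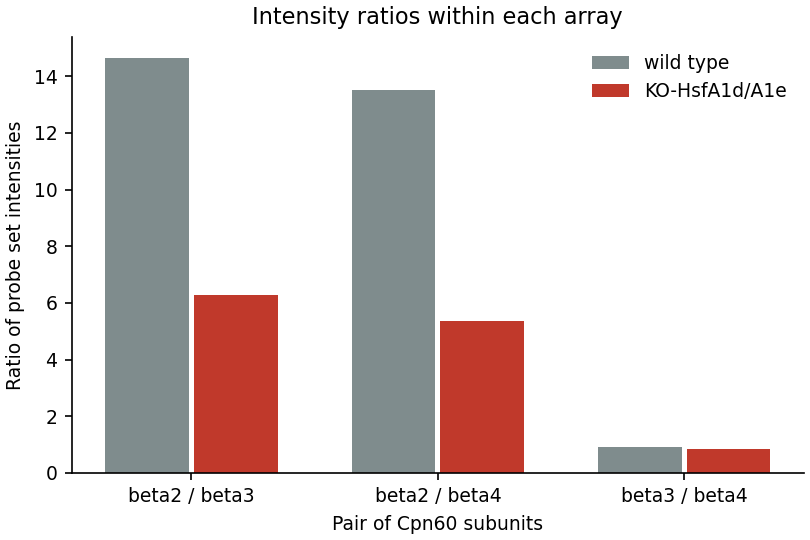
Ratio of probe set intensities within each array for the 3 pairs of beta subunits, 1 bar per array and no error bars because there is 1 array per genotype. The ratios with Cpn60beta2 on top go from 14.7 to 6.28 and from 13.5 to 5.35, and that of Cpn60beta3 to Cpn60beta4 goes from 0.922 to 0.852.

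The only scatter that can be measured within these arrays is that between probe sets of genes that several probe sets name alone. Past the filter there were 13 such genes with 26 probe sets, and the differences of probe sets of 1 gene scattered around that gene's mean with an SD of 0.20 log2 units. The largest gap between the differences of probe sets of 1 gene was 0.56. Without the filter, 74 such genes gave an SD of 0.33 and a largest gap of 1.66. This scatter covers probe sets on the same arrays only and leaves out the spread between plants, RNA preparations and hybridizations. It is no test of the subunits, which were chosen by their differences. Coding sequences of the beta subunits are similar to each other and to Cpn60beta1, and the part of signal from a relative on a member's probes was not tested.

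The rest of the chloroplast chaperonin was mostly out of view. Of 6 fixed partners, namely the alpha subunits, Cpn60beta1, Cpn20 and the Cpn10 proteins, 1 was named alone by a probe set. This was AT3G60210, a Cpn10-type lid protein of the chloroplast, with 2149 against 2138 in the mutant, a log2 difference of -0.01. The lid protein differed far less between the arrays than Cpn60beta2. As Cpn60beta2 was chosen by its difference, nothing is read from this contrast. Of 9 other chloroplast chaperones on the list, AT1G36390, a GrpE-type nucleotide exchange factor for HSP70, was measured, with 434.1 against 429.7 (-0.01). Of 5 mitochondrial chaperonin genes, AT1G23100, a Cpn10-like gene, was measured but was dim and under the filter, with 60.4 against 53.2 (-0.14). The alpha subunits and Cpn60beta1 are not analysed here, so a change in the makeup of the whole ring cannot be read from these arrays.

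The cytosolic chaperonin CCT, the distant relative that folds actin and tubulin, was covered almost in full and offers the closest comparison with another chaperonin. Of its 9 fixed subunit genes, 8 were measured and all 8 were past the filter, with wild-type intensities of 1337 to 2961 and mutant intensities of 1434 to 3185. Their median log2 difference was 0.10, with 2 lower and 6 higher in the mutant, and 0 of the 8 reached 2-fold in either direction. That is near the background past the filter, where 1.38% of probe sets were at least 2-fold lower and 0.121% at least 2-fold higher. The lowest was the CCT4 gene AT3G18190, with 1905 against 1758 (-0.11). The highest was the CCT7 gene AT3G11830, with 1644 against 1949 (0.24). The subunit nearest to 0 was the CCT3 gene AT5G26360, with 1934 against 1936 (0.00). Over the 28 pairs of CCT subunits, the widest gap between differences was 0.36 and the median gap 0.12. The span over the 3 chloroplast beta subunits was 1.34, and between Cpn60beta3 and Cpn60beta4 alone it was 0.11. The beta subunits were chosen by their differences, so nothing is read from their wider span.

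Genes of Rubisco and its helpers, which act on the main client of Cpn60, stayed within 2-fold, as did most probe sets past the filter. Of 10 fixed genes, 4 were measured, with a median difference of -0.12 and a range from -0.22 to 0.13. The lowest was AT3G47650, the BSD2 chaperone that holds folded large subunits after they leave the chaperonin, with 10219 against 8751 (-0.22). AT5G51110, the assembly factor RAF2, had 6892 against 6245 (-0.14). RCA, Rubisco activase, which clears inhibitors from the enzyme, had 22929 against 25125 (0.13). The plastid gene rbcL, which encodes the large subunit itself, was under the filter with 234.1 against 216.9 (-0.10). Most plastid transcripts lack the long tails of A on which the labelling primes, so this signal is no measure of the transcript's abundance.

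The same limit applies to the plastid genes of the NDH complex, whose NdhH protein is the known client of Cpn60beta4. Of 12 fixed genes, 8 were measured and 3 of these were past the filter. ndhI had 12334 against 14183 in the mutant (0.20), ndhA had 3875 against 4320 (0.16), and ndhC had 4887 against 5264 (0.11). Each of these 3 bright members was slightly higher in the mutant. The 5 dim members ran from -0.56 for ndhF, with 20.8 against 9.02, to 0.57 for ndhE, with 15.1 against 30.3, and none reached 2-fold on the scale with the added 16. As plain intensities, the mutant value was 0.433 times the wild-type value for ndhF and 2.01 times for ndhE. ndhH, the gene of the client itself, was not analysed here. Over all 6 lists of chaperonin partners and clients, 23 of 51 genes were measured, 11 lower and 12 higher in the mutant. Of the 23, 0 were at least 2-fold lower and 0 at least 2-fold higher, with no test possible, and their median difference was 0.00. Differences as low as that of Cpn60beta3 were seen in 2 of the 23, ndhF and the similarly dim ndhD (49.4 against 31.8, -0.45). Among all probe sets past the filter, 7.52% were as low.

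**Figure D4:**
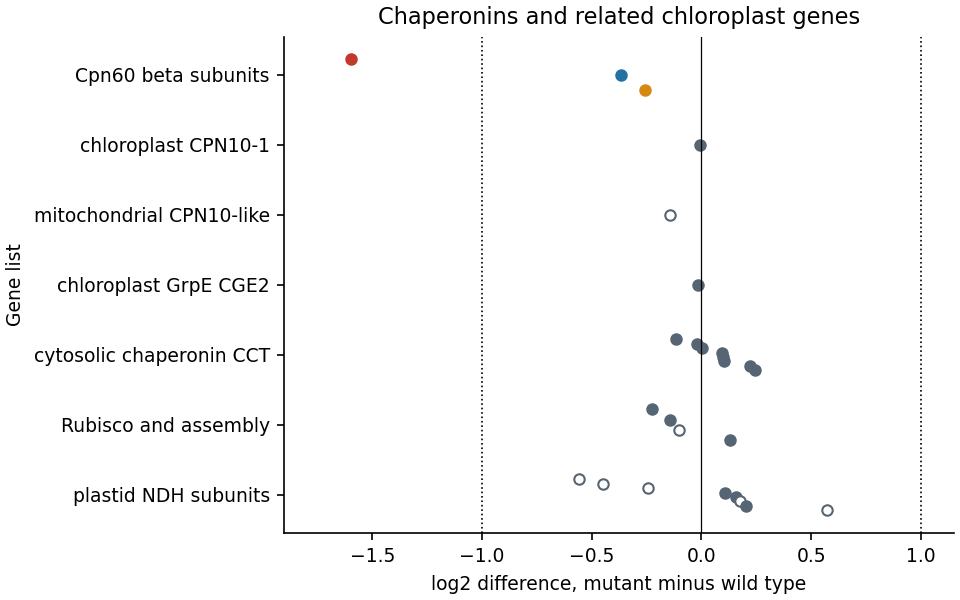
Log2 difference, mutant minus wild type, of each measured gene of the beta subunits and of 6 lists of other chaperonins, chaperones and client genes, 1 point per gene. Filled points are past the expression filter, open points are under it, and dotted lines mark 2-fold. Cpn60beta2 at -1.60 is the only point past 2-fold, and the CCT subunits lie between -0.11 and 0.24.

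The genes whose pair of values lay closest to each subunit were sought among singly named probe sets by distance in the plane of the 2 log2 values. Over 2 arrays this likeness means only a similar brightness and a similar difference. Closest to Cpn60beta2 were AT3G12050, with an Aha1 domain as in activators of HSP90 (8279 against 3062, distance 0.13), AT2G41090, a calmodulin-like protein (8452 against 2425, distance 0.21), and AT1G67360, a protein of lipid droplets (7483 against 3107, distance 0.24). For the other subunits, the nearest genes lay far closer, where probe sets are dense. Cpn60beta3 had AT1G24040 (distance 0.03), AT1G05340 (0.04) and AT5G66440 (0.04), and Cpn60beta4 had AT2G34510 (0.01), AT4G38930 (0.02) and AT1G53645 (0.03).

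The few measured genes near the subunit genes on their chromosomes did not share the low value of Cpn60beta2, which was chosen by its difference. Most neighbours were not measured, and an effect of the region was not tested. Within 5 protein-coding genes on either side of Cpn60beta2 in the TAIR10.1 gene table, 3 were measured, and all were slightly higher in the mutant. This was the more common direction, as 43.7% of the probe sets past the filter were lower in the mutant. The gene next to Cpn60beta2, AT3G13480, had 340.5 against 434.3 (0.34). AT3G13440 had a difference of 0.13 and AT3G13510 one of 0.03. Near Cpn60beta3, the only measured genes, AT5G56460 and AT5G56520, were dim and under the filter, with differences of 0.11 and 0.09. Beside Cpn60beta4, AT1G26220, the adjacent gene, had 622.4 against 627.9 (0.01), and AT1G26180 had 765.4 against 1011 (0.39).

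The arrays were alike in scale, with median intensities of 334.1 (wild type) and 331.9 (mutant) and mean intensities of 931.0 and 931.2. HsfA1d, HsfA1e and HsfA2 had no probe set that names them alone here, so the genotype labels were not checked on their targets. The leaf markers RCA, LHCB4.1 and LHCB4.2, 3 of 6 fixed, were bright on both arrays, between 11304 and 25125. Of 6 root, flower and seed markers, the root beta-glucosidase PYK10 was measured, with 2555 against 3758 (0.55). That lay above 0.52, the upper end of the central 95% of differences past the filter. Whether a differing mix of tissues has a part in the differences of the subunits was not tested. In whole leaves, fewer cells of a type and less RNA per cell cannot be told apart.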

How the data were processed

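The authors deposited 1 linear intensity per probe set and array, in 1 table of 16541 probe sets for 2 arrays. Per the labels' protocols, RNA came from a Sepasol-RNA I extraction, and 100 ng was labelled by the 3'IVT Express procedure. For the summarizing software, background correction and scaling, the entry is: not given in the sources used here. Genes were named from the platform annotation held by GEO, updated through Entrez identifiers to TAIR10.1 (9095 of 9139 singly named probe sets matched). Plastid genes were matched by symbol. A further 340 probe sets had several names and 7062 had none, and these were not used for single genes. Where several probe sets named a gene, the one with the highest mean was used. Values were taken as log2(intensity + 16) as deposited, and fold values and ratios as deposited intensities without the 16. Probe sets past the median of the mean log2 value, 8.44, were kept for counts, and sizes were counted at 2-fold. With 1 array per genotype no test was made, and the number of arrays limits the precision. The members, the gene lists and the rule for named genes were chosen with earlier results of these data known. Named genes were the members, measured list genes and the 3 genes nearest to each member. Some genes of the Rubisco list are not reported here and were left out of its counts. The probe set pairs and the chromosomal neighbours were chosen after the data were seen. The alternatives were pseudocounts of 0, 1 and 64, median centring, quantile normalization, loess (span 0.3), no filter, a filter at percentile 75 and thresholds of 1.5-fold and 3-fold. The counting code was run on simulated data with large changes planted in bright probe sets only. That checks the code and says nothing of the error of these arrays. Python 3.11.15, pandas 2.3.3, NumPy 2.4.6 and statsmodels 0.14.6 were used. No probe, promoter or protein sequence was used here.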

Additional observations from a re-analysis of the deposited data

How the results depend on the processing

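No paired analysis was possible because there is 1 array of each genotype, and for the same reason none could be left out. Under the alternative pseudocounts and scalings, all 33 values of the subunit differences and ratio changes kept their direction and side of 2-fold; the pseudocount of 0 was chosen after seeing the data. The log2 difference ran from -1.64 to -1.58 for Cpn60beta2, from -0.40 to -0.34 for Cpn60beta3 and from -0.29 to -0.24 for Cpn60beta4. The change of the Cpn60beta2 ratio ran from -1.24 to -1.20 against Cpn60beta3 and from -1.35 to -1.31 against Cpn60beta4. Median centring shifts all genes alike and cannot alter a ratio, so it was not run for ratios. The counts of probe sets at 2-fold, 114 lower and 10 higher, moved by construction when the filter or the size was altered. They became 377 lower and 127 higher without the filter, 65 and 3 under a filter at percentile 75, 276 lower and 129 higher for 1.5-fold, and 51 and 2 for 3-fold. Of the 23 partner and client genes, 1 was at least 2-fold lower with a pseudocount of 1, the dim ndhF, whose values lie where the added constant sets the size. None of these alternatives stands in for replicate arrays, and for dim probe sets the unknown background limits what can be read.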
